A study of Mus musculus with 8 samples.

Results

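Klotho, the FGF receptor and the vitamin D system were followed through 5 genes in sorted distal convoluted tubules of the mouse kidney: Kl, Fgfr1, Vdr, Cyp24a1 and Cyp27b1. The genes were listed by name, for their roles in these systems, with earlier results of these data known. All 5 were among the 42416 gene identifiers of the count files, each with a single identifier, and all 5 had enough reads to be tested.

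Klotho is a transmembrane protein that binds an FGF receptor and turns it into a high-affinity receptor for FGF23, the phosphate-lowering hormone made in bone. It is made in the kidney mainly by the distal convoluted tubule, and its shed ectodomain circulates. Active vitamin D is produced by the enzyme of Cyp27b1, acts through the nuclear receptor encoded by Vdr, and is broken down by the enzyme of Cyp24a1, whose gene is a classic target of that receptor. FGF23 lowers Cyp27b1 and raises Cyp24a1 in the proximal tubule, so that both hormones regulate each other.

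There were 4 libraries labelled KO and 4 labelled Control. KO mice were Cnb1fl Tg/Tg, NCCcre Tg/+, TOMATO Tg/+. They carried floxed Cnb1 (symbol Ppp3r1), the gene of the regulatory subunit of the phosphatase calcineurin, together with a Cre transgene, whose name refers to the NaCl cotransporter, and a Tomato reporter. Control mice were Cnb1fl wt, NCCcre Tg/+, TOMATO Tg/+, so that they differed by the absence of the floxed allele and shared Cre and reporter. Both groups received 2 mg tamoxifen by mouth per day for 5 days, and tubules were collected 3 weeks later, 1000 sorted fragments per library. The sources used here give neither age nor sex, and they do not say that each library came from a separate mouse, so p-values measure the spread between these libraries. The question was how a calcineurin knockout in this segment alters its transcripts, within a study of renal side effects of calcineurin inhibitors.

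Libraries held 18161442 to 45150953 counts in KO and 19911826 to 42389558 counts in Control. Reads are not independent molecules, so limits given from reads cover counting error only. Replicate numbers only name libraries. Ppp3r1 itself stood at 86.2 ± 10.8 CPM in KO and 97.4 ± 9.87 CPM in Control (SD, n = 4 each; CPM are counts scaled to a common library size, adjusted between libraries by the TMM method), a difference that did not pass the threshold (log2 fold change -0.18 ± 0.13 SE, edgeR quasi-likelihood adjusted p = 0.548). The deletion thus has no check in this gene's reads, and its exons also share bases with Wdr92 on the same strand. The segment's marker Slc12a3, the thiazide-sensitive NaCl cotransporter, was abundant in every library, at 3911 to 8074 CPM in KO and 5651 to 8049 CPM in Control. The other markers of this segment differed more. Pvalb (parvalbumin) was at 1.504 to 2.14 CPM in KO and 179 to 987 CPM in Control (log2 -8.06, edgeR quasi-likelihood adjusted p = 0.000375), and Trpm6 (-1.53) and Klhl3 (-0.83) were also called lower. Tfap2b (0.63) was called higher, and Slc12a3, Sall3 and Emx1 were not called. All 7 markers summed to 4712 to 8984 CPM in KO and 7423 to 9738 CPM in Control, with overlap. Without Slc12a3 the other 6 markers summed to 700.2 to 911 CPM in KO and 1146 to 2120 CPM in Control, without overlap. Transcripts of other nephron segments were present as well. Summed over 5 thick ascending limb markers the level was 2738 to 5465 CPM in KO and 7462 to 12216 CPM in Control, without overlap. Most of that sum was Umod, the 1 marker of the 5 called lower, and the other 4 overlapped, at 311 to 1041 CPM in KO and 777 to 1433 CPM in Control. Summed over 12 proximal tubule markers it was 1414 to 3321 CPM in KO and 1414 to 5310 CPM in Control, with 0 of 12 called. Summed over 10 leukocyte markers it was 27.6 to 79.4 CPM in KO and 18.6 to 25.0 CPM in Control, with 0 of the 6 tested called. Without Csf1r the sum of the other 9 overlapped, at 7.14 to 25.4 CPM in KO and 11.51 to 17.2 CPM in Control. Of the 6 tested, 2 lay in KO above Control without overlap (5.61% of all genes tested). An unadjusted p under 0.05 was found for 3 of the 6 (13.9% of all genes tested). Their median log2 fold change was 0.84, with 2 of the 6 below 0.

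Of the 5 genes, Kl and Cyp24a1 fell in KO tubules, and Vdr, Cyp27b1 and Fgfr1 did not pass the threshold of an adjusted p of 0.05 (edgeR quasi-likelihood test with Benjamini-Hochberg adjustment over the 14268 genes tested). For comparison, 0.876% of all genes tested were called lower in KO and 1.34% higher, 2.21% in all. In Kl, Vdr and Cyp24a1 each KO library lay below each Control library, a separation in this direction seen in 3.83% of all genes tested and in either direction in 9.44%. Fgfr1 and Cyp27b1 overlapped between groups. The plot of levels by library shows the spread behind these calls.

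**Figure D1:**
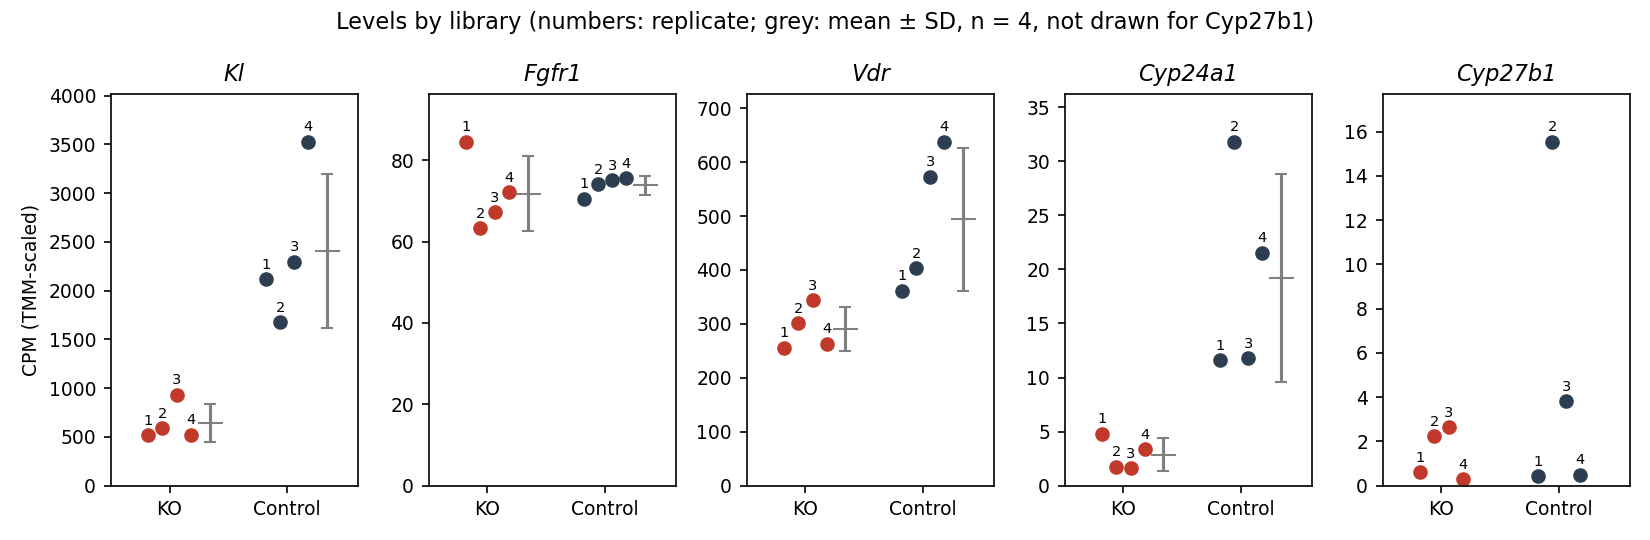
Level in CPM (vertical axes, starting at 0) of the 5 genes in the 4 KO libraries (red, left) and the 4 Control libraries (dark, right) of each panel, with replicate numbers and, except for Cyp27b1, the mean ± SD in grey. KO lies below Control without overlap for Kl, Vdr and Cyp24a1, the Fgfr1 values overlap, and for Cyp27b1 Control replicate 2 stands at 15.5 CPM above all others.

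The genes differed widely in abundance. Per kilobase of annotated exon (RPKM, from the same scaled CPM), Kl was the most abundant, at 68.7 ± 21.2 in KO and 258 ± 85.0 in Control (SD, n = 4 each). Vdr followed at 51.5 ± 7.13 RPKM in KO and 87.4 ± 23.5 RPKM in Control, and was below Kl in each of the 8 libraries. Fgfr1 stood at 7.27 ± 0.940 RPKM in KO and 7.48 ± 0.233 RPKM in Control, below Vdr in each library. Cyp24a1 was at 0.807 ± 0.423 RPKM in KO and 5.39 ± 2.698 RPKM in Control. It lay below Fgfr1 in 4 of 4 KO libraries and in 3 of 4 Control libraries, the exception being Control replicate 2. Cyp27b1 was lowest on average, at 0.560 ± 0.453 RPKM in KO and 1.97 ± 2.78 RPKM in Control, but exceeded Cyp24a1 in KO replicates 2 and 3, so that the order of the 2 enzymes was not the same across KO libraries. Among all genes tested, Kl ranked at percentile 95.8 of mean RPKM in KO and 98.9 in Control, and Cyp24a1 at percentile 18.1 in KO and 53.9 in Control.

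Kl (ENSMUSG00000058488, chr5:150952607-150993817, plus strand, GRCm38) encodes klotho, the coreceptor. It was at 515, 590.2, 933 and 524 CPM in KO replicates 1 to 4, against 2119, 1675, 2299 and 3528 CPM in Control replicates 1 to 4. The lowest Control library was 1.80 times as high as the highest KO library, and KO replicate 3 was the closest to Control. The log2 fold change was -1.91 ± 0.27 (SE, edgeR quasi-likelihood adjusted p = 0.0129), which is 3.76-fold lower in KO, with a 95% interval of -2.51 to -1.30. Each value rests on at least 10457 reads. In bulk libraries, fewer cells that express a gene and less RNA of it per cell cannot be told apart. Umod of the thick ascending limb and Pvalb, Trpm6 and Klhl3 of the distal convoluted tubule were lower in KO as were Kl and Cyp24a1, and their part in these results was not tested.

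The fall of Kl also appeared within libraries, where no scaling between libraries enters. Reads of Kl amounted to 6.38%, 13.1%, 23.8% and 13.2% of those of Slc12a3 in KO replicates 1 to 4, against 37.5%, 26.7%, 32.1% and 43.8% in Control replicates 1 to 4. The mean log2 ratio was -2.97 ± 0.778 in KO and -1.54 ± 0.306 in Control (SD, n = 4 each), a difference of -1.44 with an exact two-sided permutation p of 0.0286. This is the smallest p that the 70 assignments of 4 against 4 libraries allow, and it remained 0.0286 after adjustment over the 3 ratios compared. KO replicate 1, which had the most Slc12a3 of the KO libraries, had the lowest ratio, and the difference was -1.11 without it. The plot of ratios by library shows this pair beside the other 2.

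**Figure D2:**
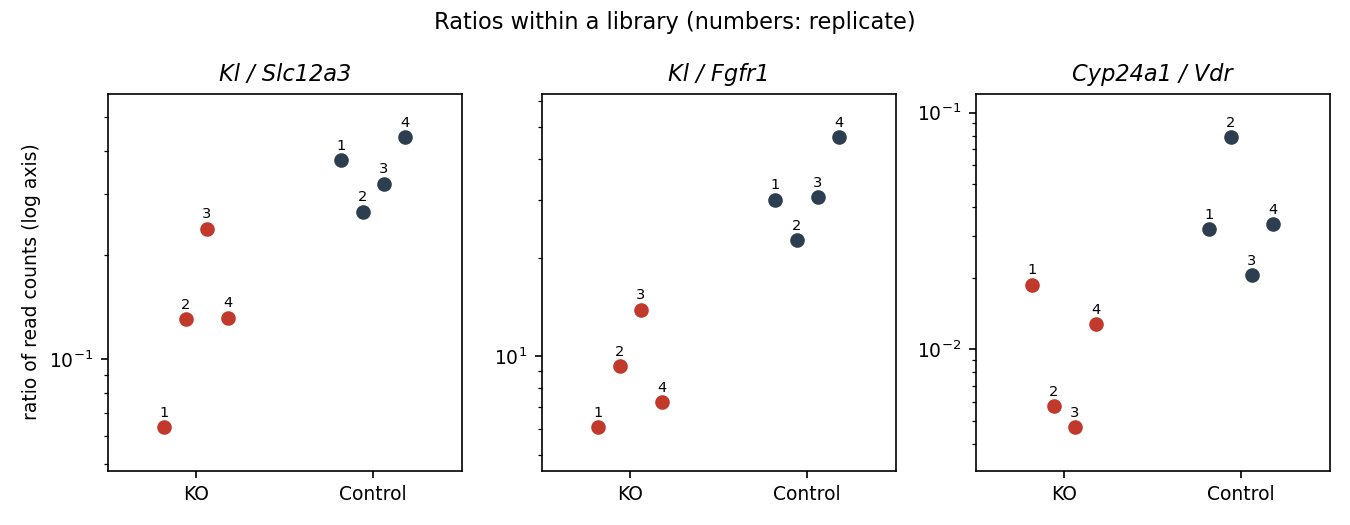
Ratio of read counts of 2 genes within each library on a log axis, for Kl over Slc12a3, Kl over Fgfr1 and Cyp24a1 over Vdr, with KO libraries at the left (red) and Control libraries at the right (dark), numbered by replicate. In each of the 3 panels all 4 KO libraries lie below all 4 Control libraries.

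The call of Kl was lost without 1 library and with a block for the number series of the sample titles, which the labels do not explain. Without KO replicate 2 the adjusted p was 0.0591 (edgeR quasi-likelihood) at a log2 fold change of -1.87, and with the block it was 0.0583 at -1.69. Control replicate 4 is alone in its series, so under the block it does not enter the genotype difference. Without Control replicate 4 and without a block the log2 fold change was -1.67 (edgeR quasi-likelihood adjusted p = 0.0336). The block also adds terms to the fit, so a call lost under it, here and below, does not show an effect of the series. Within the 6 libraries whose file name carried no index sequence the log2 fold change was -1.96 (adjusted p = 0.0449), and within the largest title number series, with 3 KO and 2 Control libraries, it was -1.55 (adjusted p = 0.145). The remaining libraries hold at most 1 KO and 1 Control library of a kind and give no test of their own.

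Promoter sequences of Kl, Vdr and Cyp27b1 are shown because they are the regulatory regions of the axis that the reference tables hold, 3 of the 5 genes. Each runs from 250 bases before to 50 bases after the start site (RefSeq, GRCm38.p6), 5′ to 3′ on the gene's strand, at chr5:150952357-150952656 (Kl, plus strand), chr15:97908247-97908546 (Vdr, minus strand) and chr10:127047996-127048295 (Cyp27b1, plus strand). Capitals mark GC boxes (GGGGCGG), single half-sites of the vitamin D receptor and the TATA-like TATATA, each searched on both strands. The half-sites searched were the form AGGTCA, the variant form AGTTCA and the variant form GGGTCA.
Kl: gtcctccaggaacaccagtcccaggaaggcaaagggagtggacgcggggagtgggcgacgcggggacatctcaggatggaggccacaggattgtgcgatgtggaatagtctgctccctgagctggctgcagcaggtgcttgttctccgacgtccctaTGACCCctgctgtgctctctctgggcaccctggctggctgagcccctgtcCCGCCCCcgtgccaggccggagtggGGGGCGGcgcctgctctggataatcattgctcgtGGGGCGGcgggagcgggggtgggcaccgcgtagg
Vdr: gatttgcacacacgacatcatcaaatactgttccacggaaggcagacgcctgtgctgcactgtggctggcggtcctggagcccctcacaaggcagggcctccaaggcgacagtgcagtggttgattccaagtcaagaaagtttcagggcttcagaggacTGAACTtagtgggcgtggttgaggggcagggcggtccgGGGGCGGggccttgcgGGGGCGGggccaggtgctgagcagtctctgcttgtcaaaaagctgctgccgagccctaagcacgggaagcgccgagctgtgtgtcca
Cyp27b1: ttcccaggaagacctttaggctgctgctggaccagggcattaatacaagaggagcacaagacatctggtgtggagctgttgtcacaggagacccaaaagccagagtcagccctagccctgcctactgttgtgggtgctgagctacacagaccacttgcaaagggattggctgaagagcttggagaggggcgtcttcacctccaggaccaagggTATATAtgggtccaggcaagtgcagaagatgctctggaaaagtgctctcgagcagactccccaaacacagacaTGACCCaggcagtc
The Kl window held 3 GC boxes, which begin 43 and 18 bases before the start site and at base 17 of the transcript, counted along the gene's strand, and its GC content was 67.3%. The Vdr window held 2 GC boxes, which begin 53 and 37 bases before the start, and its GC content was 61.3%. That of Cyp27b1 held 0 GC boxes and 1 TATATA, which begins 37 bases before the start, and its GC content was 54.3%. Across 32851 RefSeq mouse promoters of this length, 23.2% held a GC box and 5.67% a TATATA, and the median GC content was 52.7%. Single half-sites occurred once in each of the 3 windows: GGGTCA in Kl and Cyp27b1 (in 13.7% of promoters) and AGTTCA in Vdr (in 14.0%). None of the 3 windows held a direct repeat of these half-sites with a spacer of 3 bases, the arrangement that the vitamin D receptor binds together with its RXR partner, which 0.0244% of promoters held. The RefSeq start of Vdr lies 2334 bases inside the outermost GENCODE start of the gene, so the window shows 1 of its promoters.

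Fgfr1 (ENSMUSG00000031565, chr8:25513654-25575718, plus strand) encodes the receptor tyrosine kinase that pairs with klotho to bind FGF23. It was at 84.6, 63.2, 67.2 and 72.2 CPM in KO replicates 1 to 4, against 70.5, 74.1, 75.0 and 75.6 CPM in Control replicates 1 to 4. The KO values spread on both sides of the narrow Control range. The log2 fold change was -0.04 ± 0.11 (SE, edgeR quasi-likelihood adjusted p = 0.886), and it turned to 0.11 with library totals as the scaling and to 0.02 without KO replicate 2. The 95% interval of the difference, -0.29 to 0.21, leaves room for a change of 0.817-fold to 1.16-fold. Kl and Fgfr1 differed in their change: reads of Kl per read of Fgfr1 were 6.09, 9.33, 13.9 and 7.26 in KO replicates 1 to 4, against 30.1, 22.6, 30.6 and 46.6 in Control replicates 1 to 4. The mean difference on the log2 scale was -1.85, with an exact two-sided permutation p of 0.0286 (0.0286 after adjustment over the 3 ratios).

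The other ligands and receptors of the family did not pass the threshold. Of 11 listed genes, 6 could be tested, 0 were called by edgeR and 1 had an unadjusted p under 0.05, as had 13.9% of all genes tested. DESeq2 and limma-voom also called 0. Their median log2 fold change was -0.31, beside -0.02 over all genes tested. The ligand gene Fgf9, for an FGF of kidney development, stood at 78.4 ± 11.8 CPM in KO and 58.6 ± 14.0 CPM in Control (SD, n = 4 each; log2 0.42 ± 0.18 SE, edgeR quasi-likelihood adjusted p = 0.347). Fgfrl1, an FGF receptor without a kinase domain, stood at 7.54 ± 0.961 CPM in KO and 9.73 ± 1.63 CPM in Control (log2 -0.37 ± 0.17, adjusted p = 0.382). Reads of the hormone genes Fgf23, Fgf15 and Fgf21 numbered 0 in all 8 libraries, which allows up to 0.0136 CPM for each over the 8 libraries. Klb, the klotho relative that serves Fgf15 and Fgf21, had 1 read in KO and 1 in Control.

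Genes that act on klotho or FGF23 after synthesis did not pass either. Of the 6 listed genes tested, 0 were called by edgeR and 3 had an unadjusted p under 0.05 (13.9% over all genes tested). The median log2 fold change was 0.24, and 2 of the 6 lay in KO above Control without overlap, a separation in this direction seen in 5.61% of all genes tested. The 2 were sheddases that cut klotho from the membrane. Bace1 was at 134, 146, 115 and 149.7 CPM in KO replicates 1 to 4, against 88.7, 105, 106 and 102 CPM in Control replicates 1 to 4 (log2 0.43 ± 0.12 SE, edgeR quasi-likelihood adjusted p = 0.119). It passed by DESeq2 (adjusted p = 0.0477) and missed by limma-voom (adjusted p = 0.0506). Adam17 stood at 68.0 to 88.9 CPM in KO and 56.8 to 63.1 CPM in Control (log2 0.36 ± 0.11, adjusted p = 0.153 by edgeR), and neither DESeq2 nor limma-voom called it.

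The relay that carries the signal of FGF receptors inward showed 0 calls among 10 tested genes, 0 with an unadjusted p under 0.05, and 0 by DESeq2 or limma-voom. Its median log2 fold change was 0.12, over a range of -0.10 to 0.33. The smallest p-values belonged to Sos2, an exchange factor of Ras, with a log2 fold change of 0.25 ± 0.14 (SE, edgeR quasi-likelihood adjusted p = 0.442), and to the ubiquitin ligase gene Cbl with 0.33 ± 0.19 (adjusted p = 0.458). Groups overlapped in all 10 genes.

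Among 7 genes that respond to FGF and ERK signalling, the transcription factors Etv4 and Etv5 fell in KO and 5 did not pass. Over all genes tested 0.876% were called lower. Of the 7, 3 had an unadjusted p under 0.05 (13.9% over all genes tested), among them Sgk1, which was higher in KO. Etv4 was at 3.46, 3.70, 5.51 and 5.16 CPM in KO replicates 1 to 4, against 11.7, 8.47, 9.15 and 17.0 CPM in Control replicates 1 to 4 (log2 -1.38 ± 0.26 SE, edgeR quasi-likelihood adjusted p = 0.0304). Etv5 was at 6.64, 3.97, 5.67 and 6.52 CPM in KO replicates 1 to 4, against 12.8, 13.4, 10.8 and 18.5 CPM in Control replicates 1 to 4 (log2 -1.28 ± 0.22, adjusted p = 0.0214). Both lay in KO below Control without overlap, a separation in this direction seen in 3.83% of all genes tested. For the kinase gene Sgk1 the log2 fold change was 0.80 ± 0.36 (adjusted p = 0.354), and for the immediate early gene Egr1 it was 0.87 ± 0.99 (adjusted p = 0.706). Etv4 lost its call without any 1 of KO replicates 1, 2 and 4 or Control replicates 1, 3 and 4 (adjusted p from 0.0579 to 0.112), and Etv5 without KO replicate 2 or 4 or Control replicate 4 (adjusted p = 0.0703, 0.0518 and 0.0671). The block for the title number series ended both calls, at -1.14 for Etv4 (adjusted p = 0.119) and -1.10 for Etv5 (adjusted p = 0.097).

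Vdr (ENSMUSG00000022479, chr15:97854425-97910630, minus strand) encodes the vitamin D receptor. It was at 256, 301, 343 and 263 CPM in KO replicates 1 to 4, against 361, 403, 573 and 638 CPM in Control replicates 1 to 4. The groups did not overlap, and the gap between KO replicate 3 and Control replicate 1 was small. The log2 fold change was -0.76 ± 0.20 (SE, 95% interval -1.20 to -0.33), or 1.70-fold lower in KO, and missed the threshold by edgeR (adjusted p = 0.0945). It passed by DESeq2 (adjusted p = 0.0081) at -0.77 and by limma-voom with library quality weights (adjusted p = 0.0188) at -0.87, a fit that gave Control replicate 1 a weight of 0.245, the lowest of the 8. Without Control replicate 1 the edgeR fit called it as well, at -0.89 (adjusted p = 0.0448). Within the 6 libraries with no index sequence in the file name it was -0.79 (adjusted p = 0.228), and within the largest title number series it was -0.70 (adjusted p = 0.217).

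The order of libraries was alike in Kl and Vdr within the KO group, where both were highest in replicate 3, then 2, 4 and 1. In Control both were highest in replicate 4 and next highest in replicate 3. This is a description over 4 libraries of each group, which share depth and tissue between the 2 genes.

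The heterodimer partners and cofactors of the vitamin D receptor did not pass. Of 11 listed genes 10 were tested, 0 were called by edgeR, DESeq2 or limma-voom, and 0 had an unadjusted p under 0.05. The median log2 fold change was 0.21, over a range of -0.24 to 0.35. The coactivator gene Ncoa1 had 0.34 ± 0.18 (SE, edgeR quasi-likelihood adjusted p = 0.424) and the mediator subunit Med1 had 0.21 ± 0.12 (adjusted p = 0.459). Ncoa1 lay at 68.9 to 85.5 CPM in KO and 38.03 to 67.5 CPM in Control, without overlap, and Control replicate 1 was the lowest. A separation in this direction was seen in 5.61% of all genes tested.

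Cyp27b1 (ENSMUSG00000006724, chr10:127048250-127053006, plus strand) encodes the mitochondrial enzyme that makes active vitamin D, a gene of the proximal tubule in the kidney. It was at 0.596, 2.24, 2.64 and 0.301 CPM in KO replicates 1 to 4, against 0.439, 15.5, 3.81 and 0.501 CPM in Control replicates 1 to 4. The groups overlapped, and Control replicate 2 held 646 of the 738 Control reads. The log2 fold change was -1.84 ± 1.06 (SE, 95% interval -4.20 to 0.51, edgeR quasi-likelihood adjusted p = 0.458). Without Control replicate 2 it was -0.13, and within the 6 libraries with no index sequence in the file name it was 0.14 (adjusted p = 0.965).

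Levels of Cyp27b1 were read beside those of the proximal tubule markers. In Control replicate 2 the 12 markers summed to 5310 CPM and in Control replicate 3 to 4566 CPM, the 2 libraries with the most of both. In KO replicate 4 and Control replicate 1 they summed to 1414 CPM each, where Cyp27b1 was at 0.301 and 0.439 CPM. KO replicate 1 and Control replicate 4, with sums of 3060.2 and 3214 CPM, held 0.596 and 0.501 CPM of Cyp27b1, below the 2.24 CPM of KO replicate 2 with a sum of 2220.1 CPM. The part of proximal tubule RNA in the result was not tested.

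**Figure D3:**
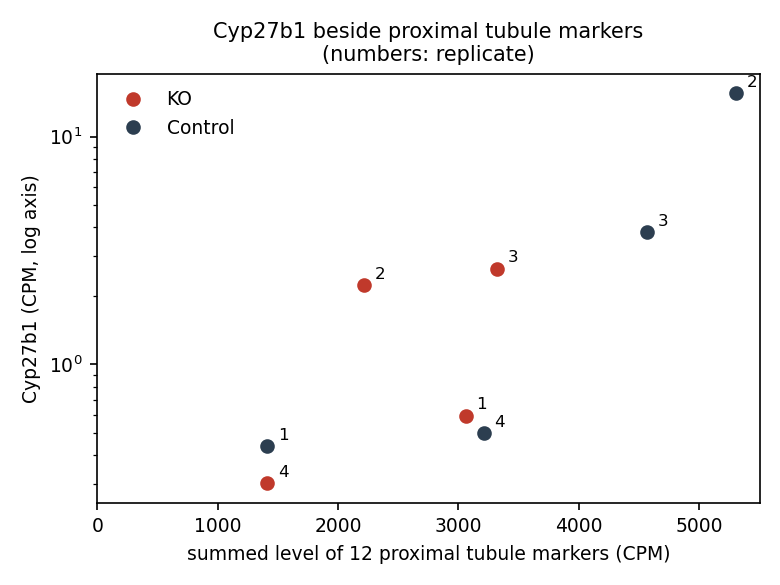
Cyp27b1 level in CPM (vertical, log axis) against the summed level of 12 proximal tubule markers in CPM (horizontal) in the 4 KO (red) and 4 Control libraries (dark), numbered by replicate. Control replicate 2 lies highest on both axes, at 15.5 and 5310 CPM, and KO replicate 4 lowest on both, at 0.301 and 1414 CPM.

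Cyp24a1 (ENSMUSG00000038567, chr2:170482708-170497145, minus strand) encodes the mitochondrial enzyme that inactivates vitamin D and its precursor. It was at 4.79, 1.74, 1.61 and 3.36 CPM in KO replicates 1 to 4, against 11.6, 31.8, 11.8 and 21.6 CPM in Control replicates 1 to 4. Those values rest on 41 to 233 reads per KO library and 226 to 1322 reads per Control library. The lowest Control library was 2.42 times as high as the highest KO library. The log2 fold change was -2.72 ± 0.44 (SE, 95% interval -3.70 to -1.74, edgeR quasi-likelihood adjusted p = 0.017), or 6.61-fold lower in KO.

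The exons of Cyp24a1 share 83 of their 3560 bases with Pfdn4, a prefoldin gene on the opposite strand, and without a known strand setting those reads cannot be assigned. Pfdn4 stood at 15.8 ± 0.747 CPM in KO and 15.1 ± 3.96 CPM in Control (SD, n = 4 each), with a log2 fold change of 0.07 ± 0.18 (SE, edgeR quasi-likelihood adjusted p = 0.878). The exons of Fgfr1 share 164 of 9875 bases with an antisense gene that had 0 reads, and those of Kl, Vdr and Cyp27b1 share none.

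Cyp24a1 fell more than Vdr. Its reads amounted to 1.87%, 0.576%, 0.470% and 1.28% of those of Vdr in KO replicates 1 to 4, against 3.21%, 7.89%, 2.06% and 3.38% in Control replicates 1 to 4. The mean log2 ratio was -6.78 ± 0.930 in KO and -4.77 ± 0.807 in Control (SD, n = 4 each), a difference of -2.003 with an exact two-sided permutation p of 0.0286 (0.0286 after adjustment over the 3 ratios). KO replicate 1 lay closest to Control replicate 3, at 1.87% against 2.06%, and without Control replicate 2 the difference was -1.63.

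The call of Cyp24a1 was lost without KO replicate 2 (edgeR quasi-likelihood adjusted p = 0.070) and without Control replicate 4 (adjusted p = 0.0627), and with a block for the title number series (adjusted p = 0.097), at log2 fold changes of -2.55, -2.67 and -2.72. Within the 6 libraries with no index sequence in the file name it was -2.75 (adjusted p = 0.039), and within the largest title number series it was -3.32 (adjusted p = 0.12). The plot of fold changes under each setting shows these beside the others.

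**Figure D4:**
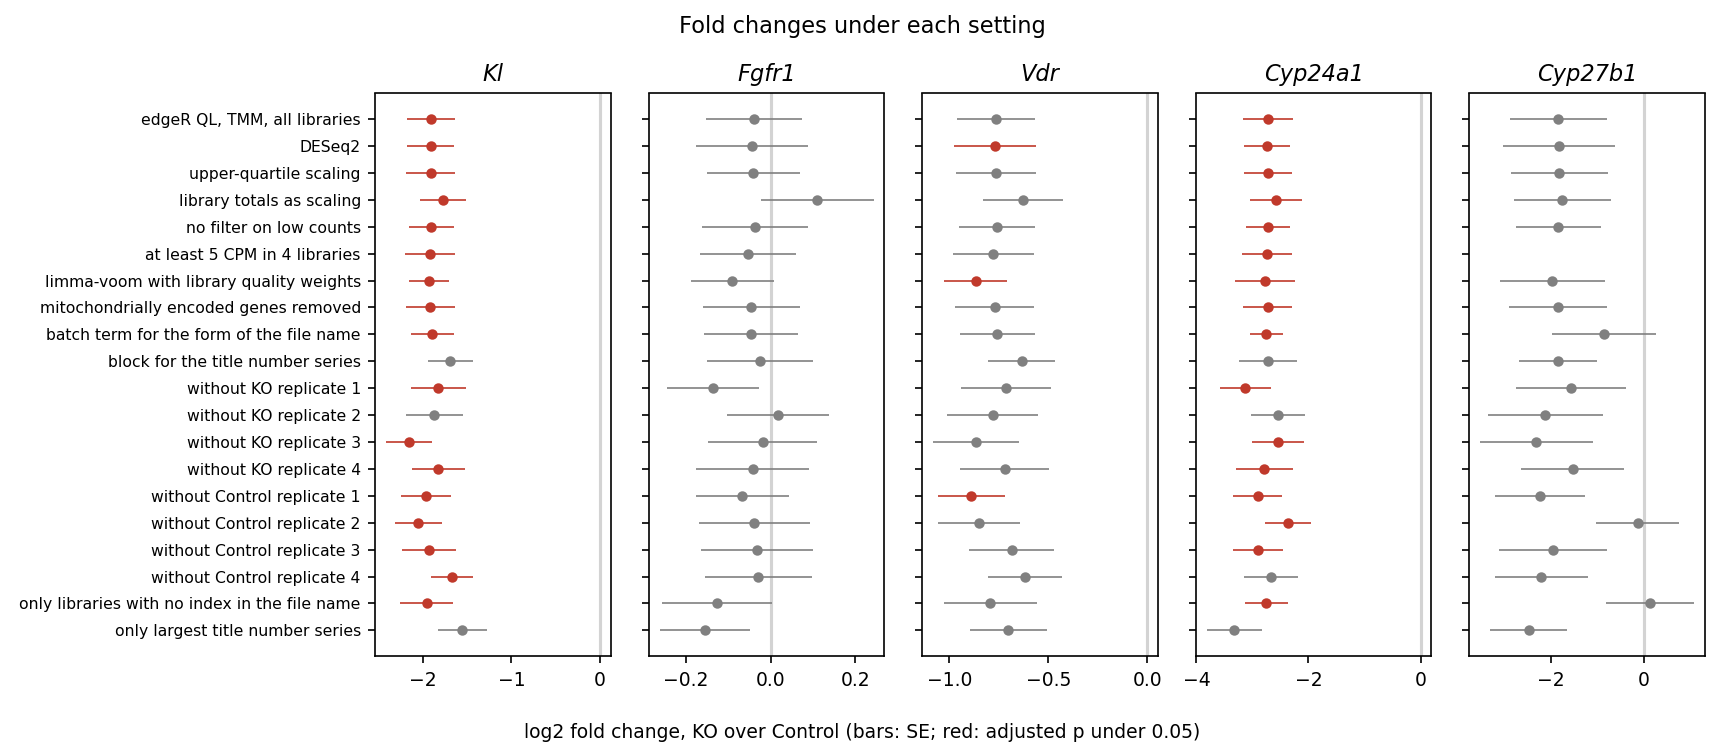
Log2 fold change of KO over Control (horizontal axes, which differ between panels) of the 5 genes under each setting (rows), with bars of 1 SE and red where the adjusted p is under 0.05. Kl stays between -2.16 and -1.55 and Cyp24a1 between -3.32 and -2.37, Vdr is called under 3 settings, and Cyp27b1 moves to -0.13 without Control replicate 2.

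Other genes of vitamin D supply and uptake did not pass. Of 11 listed genes 9 were tested, and 0 were called by edgeR, DESeq2 or limma-voom. Of the 9, 1 had an unadjusted p under 0.05 (13.9% over all genes tested). Their median log2 fold change was -0.45. The listed uptake genes include Lrp2 and Cubn, receptors of the proximal tubule that are also among its markers, and the 12 proximal markers had a median of -0.55. Lrpap1, the chaperone of the receptor megalin, stood at 130.2 ± 21.1 CPM in KO and 167 ± 26.8 CPM in Control (SD, n = 4 each; log2 -0.36 ± 0.16 SE, edgeR quasi-likelihood adjusted p = 0.346). Cyp27a1, a sterol hydroxylase that can also hydroxylate vitamin D, stood at 5.35 ± 3.06 CPM in KO and 9.53 ± 4.03 CPM in Control (log2 -0.83 ± 0.46, adjusted p = 0.447).

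Genes reported to respond to vitamin D in kidney, gut or bone mostly lay lower in KO, though few passed. Of 7 tested, edgeR called 2 lower and 0 higher, against 0.876% lower and 1.34% higher over all genes tested. Of the 7, 5 had an unadjusted p under 0.05 (13.9% over all genes tested). DESeq2 also called S100g, the gene of another calcium-binding protein, lower. The median log2 fold change was -0.89. Calb1, the calbindin of the distal tubule, was at 215, 566, 873 and 310.3 CPM in KO replicates 1 to 4, against 3749, 2019, 2939 and 3879 CPM in Control replicates 1 to 4 (log2 -2.68 ± 0.42 SE, edgeR quasi-likelihood adjusted p = 0.0155). Slc8a1, the basolateral sodium-calcium exchanger, was at 128, 255, 438 and 178 CPM in KO replicates 1 to 4, against 1075, 772, 1465 and 2192 CPM in Control replicates 1 to 4 (log2 -2.46 ± 0.42, adjusted p = 0.0208). Both are also among the 7 connecting tubule markers, as are S100g and Trpv5, which also belong to the 7 genes tested here. These markers had a median log2 fold change of -1.04. Of these 7 markers, 6 had an unadjusted p under 0.05 (13.9% over all genes tested). All 7 summed to 17672 to 35396 CPM in KO and 18825 to 39091 CPM in Control, with overlap. Most of that sum was Klk1, which was not called and lay higher in KO (log2 0.39). Without it the other 6 summed to 1141 to 4049.9 CPM in KO and 6427 to 13981 CPM in Control, without overlap. Among those 6 are Calb1, Slc8a1, S100g and Trpv5, so this sum is not separate from the genes reported here. Principal cell markers summed to 116 to 274 CPM in KO and 267 to 416 CPM in Control. All 6 were lower in KO at an unadjusted p under 0.05 (13.9% over all genes tested, both directions together), and 0 were called. Their median log2 fold change was -0.98, and Scnn1b and Scnn1g are in both marker lists. The part of either cell type in the result was not tested. S100g was at 664, 2700, 2416 and 842 CPM in KO replicates 1 to 4, against 8876, 3358, 6253 and 3806 CPM in Control replicates 1 to 4, without overlap (log2 -1.75 ± 0.49, adjusted p = 0.125 by edgeR and 0.0424 by DESeq2). A separation in this direction was seen in 3.83% of all genes tested. In Calb1 and Slc8a1 KO replicate 3 was the highest KO library, as it was for Kl and Vdr. Calb1 lost its call without KO replicate 2 or Control replicate 4 (adjusted p = 0.0611 and 0.0596), and Slc8a1 without KO replicate 2 or 4 or Control replicate 3 or 4 (adjusted p from 0.0579 to 0.0798). The block for the title number series ended both calls (adjusted p = 0.097 for Calb1 and 0.0885 for Slc8a1).

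Phosphate transport and parathyroid hormone genes did not pass by edgeR. Of 10 listed genes 9 were tested, 0 were called and 2 had an unadjusted p under 0.05 (13.9% over all genes tested). The median log2 fold change was -0.20. Casr, the calcium-sensing receptor gene, was at 243, 312, 263 and 395 CPM in KO replicates 1 to 4, against 84.2, 176, 156 and 199 CPM in Control replicates 1 to 4 (log2 0.98 ± 0.26 SE, edgeR quasi-likelihood adjusted p = 0.0973). It passed by DESeq2 (adjusted p = 0.0077) and by limma-voom (adjusted p = 0.0247). Pth1r, the receptor of parathyroid hormone, was at 236, 315, 283 and 313 CPM in KO replicates 1 to 4, against 405, 369, 391 and 453 CPM in Control replicates 1 to 4 (log2 -0.50 ± 0.13, edgeR adjusted p = 0.104). It passed by DESeq2 (adjusted p = 0.0126) and missed by limma-voom (adjusted p = 0.0569). Neither gene overlapped between groups, a separation seen in 5.61% of all genes tested for KO above Control and in 3.83% for KO below.

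Over the 8 pathway lists without the 5 genes themselves, 64 of 73 genes were tested. Of these, 4 were called lower and 0 higher by edgeR, with a median log2 fold change of -0.01. Over all genes tested, edgeR called 0.876% lower and 1.34% higher. With the 5 genes included, edgeR called 6 lower and 0 higher. DESeq2 called 9 lower, adding Vdr, S100g and Pth1r, and 2 higher, Bace1 and Casr. Limma-voom called 7 lower, adding Vdr, and 1 higher, Casr. Of all genes that each of them tested, DESeq2 called 1.87% lower and limma-voom 1.63%. Called higher were 436 of 16747 genes by DESeq2 and 286 of 14268 genes by limma-voom. The plot of the lists sets each gene beside its group.

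**Figure D5:**
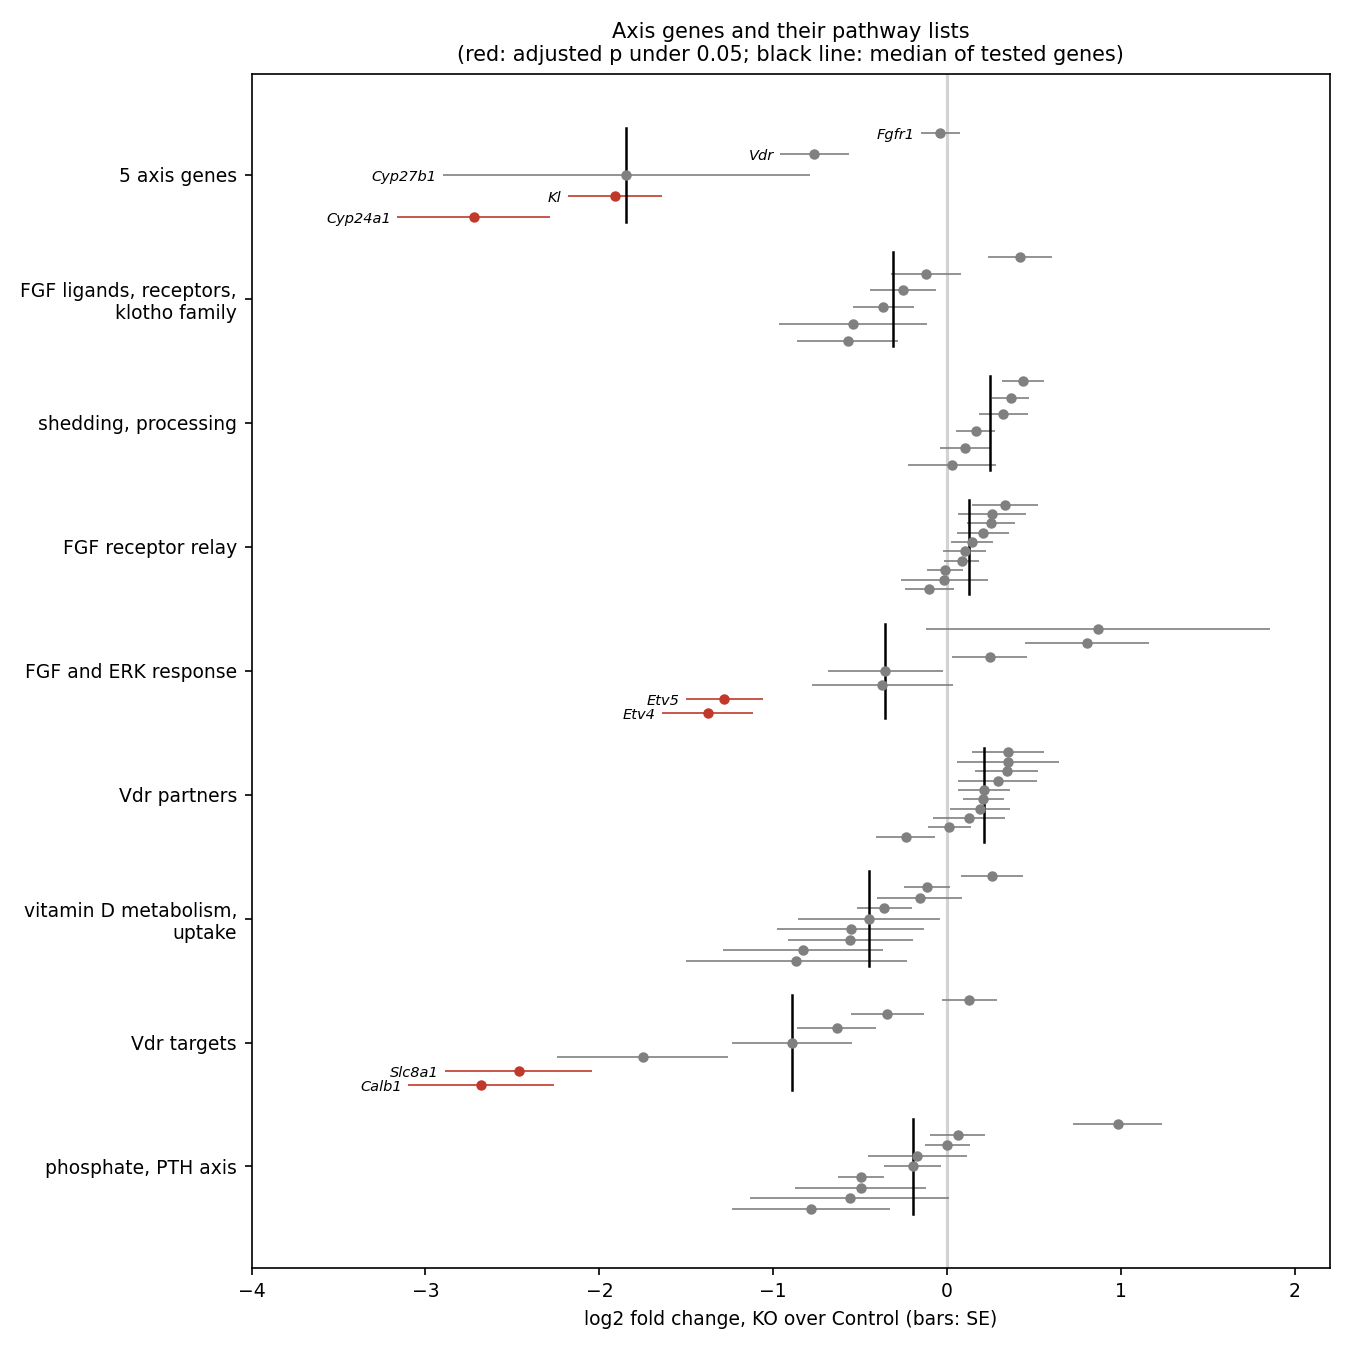
Log2 fold change of KO over Control (horizontal) of the 5 axis genes and of each tested gene in the 8 pathway lists (rows), with bars of 1 SE, red where the edgeR adjusted p is under 0.05, and a black line at the median of the row. The called genes are Cyp24a1, Kl, Etv4, Etv5, Calb1 and Slc8a1, all to the left of 0.

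The genes whose levels followed Kl most closely over the 8 libraries were Sfrp1, Arl15, Loxl2, Tmem86a and Inpp5a. Likeness was measured among 10371 protein-coding genes of at least 5 CPM on average, as the root-mean-square difference of log2(CPM + 1) values after subtracting each gene's mean. It was 0.17 for Sfrp1, 0.19 for Arl15, 0.33 for Loxl2, 0.36 for Tmem86a and 0.38 for Inpp5a, where the median gene had 1.04. Sfrp1, a secreted Wnt antagonist, was at 231, 309, 444 and 327 CPM in KO replicates 1 to 4, against 1129, 1014, 1197 and 1573 CPM in Control replicates 1 to 4. Its highest KO library was replicate 3 and its highest Control library replicate 4, as for Kl.

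For Cyp24a1 the nearest genes were farther away: Slc41a3 at 0.56, Mapk10 at 0.61, Cables1 at 0.66, Inpp5a at 0.67 and Srl at 0.67, against 1.31 for the median gene. Slc41a3, a magnesium transporter, was at 4.83, 4.51, 5.08 and 4.46 CPM in KO replicates 1 to 4, against 23.5, 24.1, 10.03 and 33.5 CPM in Control replicates 1 to 4. Unlike Cyp24a1, it did not peak in Control replicate 2. Inpp5a, a phosphatase of inositol phosphates, was near both Kl and Cyp24a1. A gene that separates the groups by a similar amount is near by this measure whatever else it does, and the added 1 CPM compresses genes at low KO levels, among them Cyp24a1 and Loxl2. Loxl2 was at 0.771 to 2.44 CPM in KO, and its fitted log2 fold change of -3.05 was larger in size than the -1.91 of Kl.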

How the data were processed

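RNA of 1000 sorted distal convoluted tubule fragments was sequenced in each of 4 KO and 4 Control libraries. The authors deposited whole-number read counts per Ensembl gene, not normalized. The submitters' processing notes name STAR 2.7.4a, fastp 0.20.0, bcl2fastq 2.20 and the build GRCm38.p6. Counting program, annotation release and strand setting: not given in the sources used here.

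Names, coordinates and exon lengths came from GENCODE M21 on GRCm38, in which 42347 of 42416 identifiers had a name. The rest held 0.0199% of counts. Genes were filtered with filterByExpr, scaled by TMM and compared in edgeR 4.0.16 (R 4.3.3) by the quasi-likelihood test, two-sided, genotype as the single factor, with Benjamini-Hochberg adjustment over all genes tested. The fit was also run on simulated counts, drawn independently for each library and without batch effects, and no result here rests on that run. Each standard error is the absolute log2 fold change over the root of F. Ratios of counts (1 added to each) were compared by exact permutation in SciPy 1.17.1. DESeq2 1.42.0, limma 3.58.1 voom, other scalings and filters, batch terms and left-out libraries were alternatives.

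The 5 genes and the lists were chosen with earlier results of these data known. Named genes were the 5, overlapping genes, Ppp3r1, Slc12a3, each list's called genes (otherwise the 2 with the smallest p) and the 5 genes nearest to Kl and to Cyp24a1. Genes with few reads, S100g, Trpv5, Sgk1, Egr1, Klk1, Csf1r, Umod, Lrp2 and Cubn were named after their values were seen. The title number series and the index in 2 file names (KO replicate 1 and Control replicate 2) were used as batch terms.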

Additional observations from a re-analysis of the deposited data

How the results depend on the processing

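Under 17 of the alternatives, Kl kept its direction and its call in 15, between -2.16 and -1.67 on the log2 scale, and Cyp24a1 in 14, between -3.13 and -2.37. With a block for the title number series neither passed, at -1.69 (Kl) and -2.72 (Cyp24a1), nor within the largest series alone, at -1.55 and -3.32, an alternative added after seeing the data, as was the restriction to libraries with no index in the file name. Leaving out 1 library at a time gave -2.16 to -1.67 for Kl, -3.13 to -2.37 for Cyp24a1, -0.89 to -0.62 for Vdr, -0.14 to 0.02 for Fgfr1 and -2.32 to -0.13 for Cyp27b1. Vdr gained a call by DESeq2 (-0.77) and limma-voom (-0.87). Fgfr1 turned to 0.11 when libraries were scaled by their totals (median of all genes 0.13, against -0.02 by TMM), and to 0.017 without KO replicate 2. Cyp27b1 turned to 0.14 in the libraries with no index in the file name, and was not tested when 5 CPM in 4 libraries were required. Without 1 library the difference in log2 ratio lay between -1.74 and -1.11 (Kl over Slc12a3), -2.08 and -1.66 (Kl over Fgfr1) and -2.35 and -1.63 (Cyp24a1 over Vdr), where 3 against 4 libraries cannot give a p below 0.0571. With 0 counts added these differences kept their call.

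Calls among the 5 genes and their lists were 6 lower and 0 higher of 69 tested (0.876% and 1.34% over all genes tested). Left-out libraries gave 0 to 7 lower and 0 higher, the block 0 lower, the libraries with no index 3 lower and the largest series 0 lower. DESeq2 called 9 lower and 2 higher, and limma-voom 7 lower and 1 higher. Over all genes 191 were higher and 125 lower. Left-out libraries gave 15 to 257 higher and 21 to 131 lower, DESeq2 436 and 314, and limma-voom 286 and 233. The 5 CPM minimum gave 62 and 78, the file name term 105 higher, and the block 5 and 24. Libraries with no index gave 21 and 35, and the largest series 3 and 13. Fewer libraries enter the last fits, and other causes were not tested. The labels carry no replicate numbers, and the block for the title number series was the matched fit. Under it Control replicate 4, alone in its series, does not enter the genotype difference, so a lost call does not show an effect of the series. Depth limits Cyp27b1, with 6 to 67 reads per KO library and 9 to 646 reads per Control library.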

Other observations

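Of 9 genes in the lists with too few reads to be tested, Pthlh and Cyp2r1 separated the groups in CPM. Among all genes tested, 9.44% separated them in either direction, and the share among genes with few reads was not worked out. Pthlh, which encodes the parathyroid hormone-related peptide, had 3, 5, 1 and 8 reads in KO replicates 1 to 4 and 0 reads in each of the 4 Control libraries, where 0 reads allow up to 0.0297 CPM over the group, counting error only. Cyp2r1, an enzyme of the first activation step of vitamin D, had 12, 10, 8 and 6 reads in KO replicates 1 to 4 and 9, 21, 9 and 19 reads in Control replicates 1 to 4. These reads overlapped between groups before scaling. The levels of Cyp2r1 were 0.247, 0.386, 0.315 and 0.301 CPM in KO and 0.439, 0.505, 0.470 and 0.952 CPM in Control. Both genes were picked after their values were seen, and neither difference was tested.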
